A study of Mus musculus with 18 samples.

Results

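Glycolysis and hypoxia target genes were followed in whole ovaries of mouse embryos and newborns, wild type or knockout for Elavl2, whose product, an ELAV-type protein, binds RNA. The set holds 34 genes. They were chosen by name: 2 glucose transporters, 15 glycolytic enzymes, 4 genes of lactate conversion and lactate export, 3 regulators of flux and 10 other targets of hypoxia signalling. A gene was taken in when a non-control probe of the array carried its symbol or an older alias, and no measured value entered the choice. All 34 were found, on 66 of 41174 probes, and all 34 were among the 19298 genes tested. For each gene the brightest probe that passed the filter was used, and for all 34 that probe was well above background on every array, so no member owed its place to the group in which it was high.

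The 6 groups were wild type (WT) and knockout (KO) XX gonads at E15.5 and E17.5 (embryonic stages in days of gestation) and on the day of birth (P0), with 3 samples each and 18 arrays in all. The labels describe the tissue as ovary and the sample type as mixed, and give no strain, no description of the KO allele and no driver for it. Whether the 3 samples of a group are separate animals is not stated, and the p-values reflect only the spread among them, which may be technical. Values are log2 signals relative to the 75th percentile of each array. They are compared between arrays for 1 probe and never between probes. Some members, such as Gapdh, Ldha, Pgk1 and Eno1, have pseudogenes or close relatives that a probe may also read, and their values carry that uncertainty.

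Glycolysis breaks glucose down to pyruvate in the cytosol, and when pyruvate is turned into lactate the pathway can run without oxygen. Many of its genes, together with genes for blood vessel growth, collagen hydroxylation and stress responses, are activated by the hypoxia-inducible factors (HIF), which bind a short core sequence, ACGTG or GCGTG, and which prolyl hydroxylases mark for destruction when oxygen is present. In the ovary, granulosa cells are known for strong glycolysis and pass pyruvate to the oocyte, which uses glucose poorly on its own.

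The HIF core was looked up in the RefSeq promoter windows of build GRCm38.p6, from 250 bases before to 50 bases after each annotated start. Windows were found for 32 members, with 46 windows in all, and none was found for Ndrg1 and Slc2a3. Read on both strands, ACGTG stood in 25 of the 46 windows (54.3%), against 19.6% of all 32851 windows, and GCGTG in 28 (60.9%), against 32.4%. Some windows of the same gene overlap, as for Eno1 and Aldoa, so a site can count more than once. By member, ACGTG stood in a window of 22 of the 32 members and GCGTG in a window of 23. Either core stood in 37 windows, of 29 members, or 80.4% against 43.8% of all windows. The palindrome CACGTG holds ACGTG on both strands. It stood in 5 of the 46 windows, of 5 members (Ldha, Pfkfb3, Slc16a1, Pfkm and Bnip3), against 7.15% of all windows. With only 5 windows, this is not read as a difference. Eno2, Gpi1 and Tpi1 had neither core in any window. These are matches of letters, not sites shown to be bound, and no account was taken of base composition. The set was chosen to hold known hypoxia targets, so the higher shares are no independent support for it. The 200 bases before the start are shown for 6 members on which the comparisons below turn: the lactate dehydrogenase pair Ldha and Ldhb, which moved in opposite directions at birth, and Slc16a3, Pfkfb3, Ddit4 and Adm, which differed between genotypes at P0. Each is written 5′ to 3′ on the strand of the gene, from position -200 to position -1, and capitals mark every core match on either strand.
Ldha chr7:46845604-46845803 (plus strand): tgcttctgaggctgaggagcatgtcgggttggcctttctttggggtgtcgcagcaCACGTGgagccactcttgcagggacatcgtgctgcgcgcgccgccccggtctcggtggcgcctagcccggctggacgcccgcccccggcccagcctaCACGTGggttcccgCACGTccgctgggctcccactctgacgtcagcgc
Ldhb chr6:142507958-142508157 (minus strand): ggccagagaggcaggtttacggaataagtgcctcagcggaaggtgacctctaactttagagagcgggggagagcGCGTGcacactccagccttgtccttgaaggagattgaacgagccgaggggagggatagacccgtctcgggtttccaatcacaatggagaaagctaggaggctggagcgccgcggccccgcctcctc
Slc16a3 chr11:120948867-120949066 (plus strand): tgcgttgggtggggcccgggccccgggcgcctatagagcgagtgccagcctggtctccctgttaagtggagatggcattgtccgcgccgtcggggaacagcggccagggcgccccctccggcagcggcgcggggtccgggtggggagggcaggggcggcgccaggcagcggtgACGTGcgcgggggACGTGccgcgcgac
Pfkfb3 chr2:11502091-11502290 (minus strand): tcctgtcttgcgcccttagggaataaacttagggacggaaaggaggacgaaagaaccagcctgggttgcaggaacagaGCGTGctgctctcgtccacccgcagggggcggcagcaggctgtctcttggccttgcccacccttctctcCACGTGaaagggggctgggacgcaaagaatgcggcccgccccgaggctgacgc
Ddit4 chr10:59951771-59951970 (minus strand): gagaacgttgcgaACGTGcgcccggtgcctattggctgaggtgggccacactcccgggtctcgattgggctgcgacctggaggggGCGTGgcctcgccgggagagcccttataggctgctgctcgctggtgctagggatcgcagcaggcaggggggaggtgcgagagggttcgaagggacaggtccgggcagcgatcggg
Adm chr7:110627457-110627656 (plus strand): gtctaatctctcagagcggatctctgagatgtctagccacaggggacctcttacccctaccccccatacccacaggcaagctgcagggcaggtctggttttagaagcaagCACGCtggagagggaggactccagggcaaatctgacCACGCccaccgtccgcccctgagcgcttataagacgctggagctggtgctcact
The Ldha stretch held 5 matches, with each of its palindromes counted on both strands. The Pfkfb3 stretch held 3 matches and the Ldhb stretch 1. Ldha and Pfkfb3 each have 2 annotated starts, and for both the start with more matches is shown: over the whole window the other Ldha start had 2 GCGTG matches and no ACGTG, and the other Pfkfb3 start had 1 ACGTG match and no GCGTG. Those of Slc16a3, Ddit4 and Adm held 2 each. The array probes that stood for these genes lay elsewhere, on the older build mm9 of the deposited files. They were at chr7:54110889-54110948 for Ldha, chr6:142438838-142438897 for Ldhb, chr11:120820023-120820082 for Slc16a3, chr2:11393579-11393638 for Pfkfb3, chr10:59412486-59412545 for Ddit4 and chr7:117773088-117773147 for Adm. Exon positions on that build were not used here.

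The arrays were not balanced over runs and slides. Between 62.5% and 75.2% of probes were well above background on each array, no spot was saturated, and Pearson's r between replicates, taken over the tested genes, ranged from 0.965 to 0.995. The form of the deposited file names split the arrays into 2 sets, called runs here, and the arrays lay on 7 slides. Run A held all E15.5 arrays and replicate 3 of both E17.5 groups, and run B held the rest. At P0 and at E15.5 the 3 WT arrays shared a slide with no KO array, so slide and genotype cannot be told apart there. In neither genotype did E17.5 and P0 arrays share a slide, so slide and stage cannot be told apart within a genotype for that step. The same holds for the WT step from E15.5 to E17.5. A change between stages or genotypes is the fitted log2 change of 1 limma model with run as a term, and for the step from E15.5 to E17.5 that term rests on the 2 E17.5 arrays of run A. Elavl2, the targeted gene, read 1.97, 2.08 and 2.28 in WT and 1.88, 2.02 and 2.11 in KO at E15.5. At E17.5 it read 3.58, 3.60 and 3.36 in WT and 2.98, 2.77 and 2.19 in KO, and at P0 4.50, 4.59 and 4.48 in WT and 3.31, 2.94 and 3.24 in KO. The deleted part of the gene is not given in the sources used here, so the probe does not check the labels. Marker genes of germ cells (9 of 9 tested), granulosa cells (10 of 10) and stroma (8 of 8) were well above background on every array, so the ovary label and its markers went together. Endothelial (8 of 8) and macrophage genes (8 of 8) were also present throughout, and 5 of 9 red cell genes were. On the E15.5 KO 1 and E17.5 KO 3 arrays the summed red cell signal was the highest of all, at 8.48 and 8.76.

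**Figure D1:**
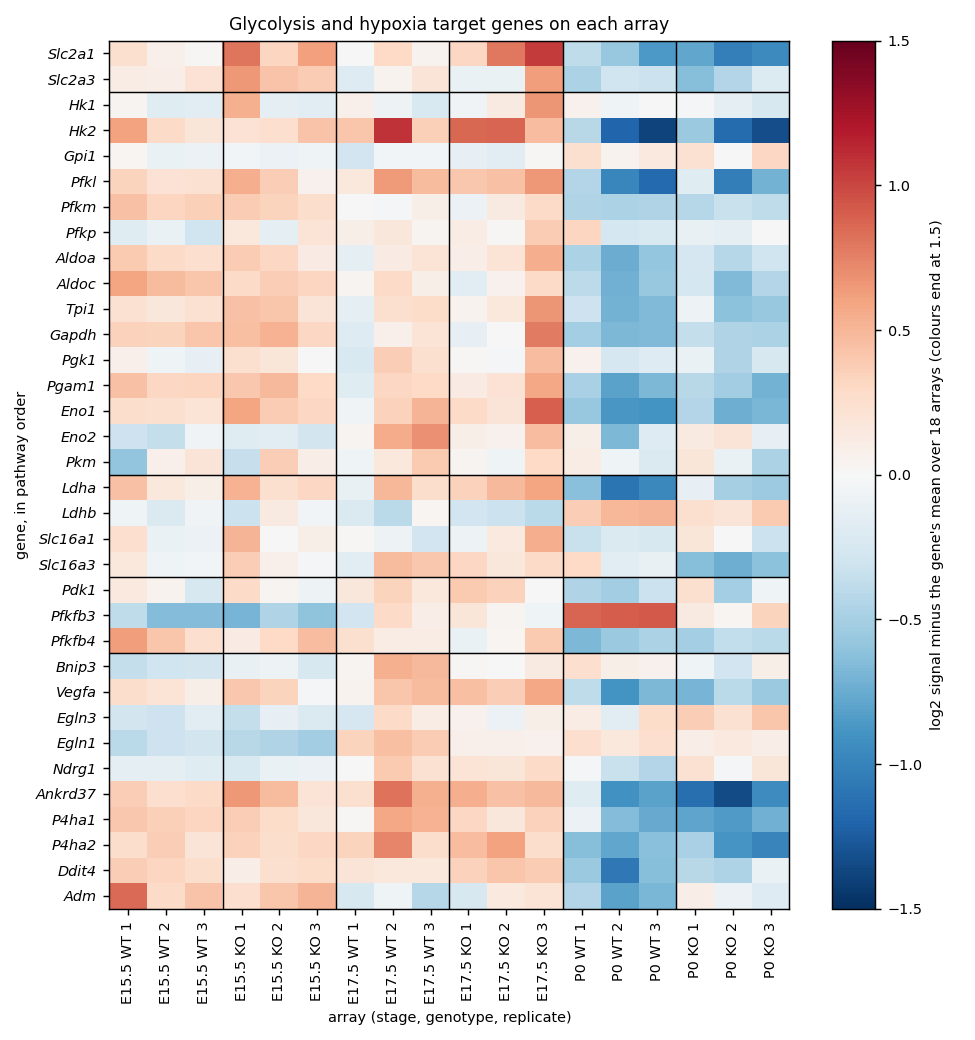
Colours show each member's log2 signal on each array minus its mean over the 18 arrays, with genes in pathway order down the side and arrays by stage, genotype and replicate along the bottom; black lines separate groups of arrays and roles of genes. The 6 P0 arrays are blue for most members, while Ldhb and, in wild type, Pfkfb3 are red there.

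The largest shift among these genes came at birth and went downwards. From E17.5 to P0 in WT ovaries, 21 of the 34 members fell, 3 rose and 10 did not pass the test (limma, adjusted p under 0.05). That is 70.6% called, against 43.3% of all genes tested, where rises (22.1%) and falls (21.2%) were balanced. The median change was -0.51 over the members and 0.01 over all genes, and 29 of 34 members had a negative change. In KO ovaries 19 members fell, 2 rose and 13 did not pass, or 61.8% against 37.2% of all genes (18.2% higher and 19% lower), with a median of -0.45 against -0.01. When only the arrays compared entered the fit, which leaves fewer residual degrees of freedom, 20 members were called in WT and 13 in KO. In both genotypes the 3 arrays of each stage stood apart for most members, 25 in WT and 24 in KO, against 50.8% and 43.6% of all genes. In whole ovaries, fewer cells of a type and less RNA per cell cannot be told apart.

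Red cell signal moved with this step. The summed level of the 9 red cell genes lay between 7.08 and 7.68 in WT at E17.5 and between 5.49 and 7.15 at P0, and in KO between 7.68 and 8.76 at E17.5 and no higher than 6.19 at P0. Of these 9 genes, 2 fell in WT and all 9 in KO. Granulosa cell genes also went lower in WT, from a summed level of 6.08 to 6.19 down to 5.74 to 5.95, with 5 of 10 lower and 2 higher. In KO that sum went from 6.26 to 6.43 down to 6.05 to 6.27. Endothelial genes in WT went from 3.53 to 3.60 down to 3.16 to 3.39, with 3 of 8 lower, and in KO they read 3.58 to 3.68 and then 3.57 to 3.80. The germ cell sum went the other way without overlap, from 6.70 to 6.91 up to 7.08 to 7.16 in WT (2 of 9 higher, 1 lower) and from 6.45 to 6.87 up to 6.91 to 7.23 in KO (3 of 9 higher). The macrophage sum went lower without overlap, from 1.73 to 1.81 down to 1.39 to 1.54 in WT (1 of 8 lower) and from 1.87 to 2.24 down to 1.58 to 1.68 in KO (3 of 8 lower). What these cell contents contribute was not tested. Without the E15.5 KO 1 and E17.5 KO 3 arrays, 23 members were called in WT and 20 in KO. Within run B alone, 30 of 34 members were lower at P0 in WT (median -0.56) and 29 of 34 in KO (median -0.40).

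**Figure D2:**
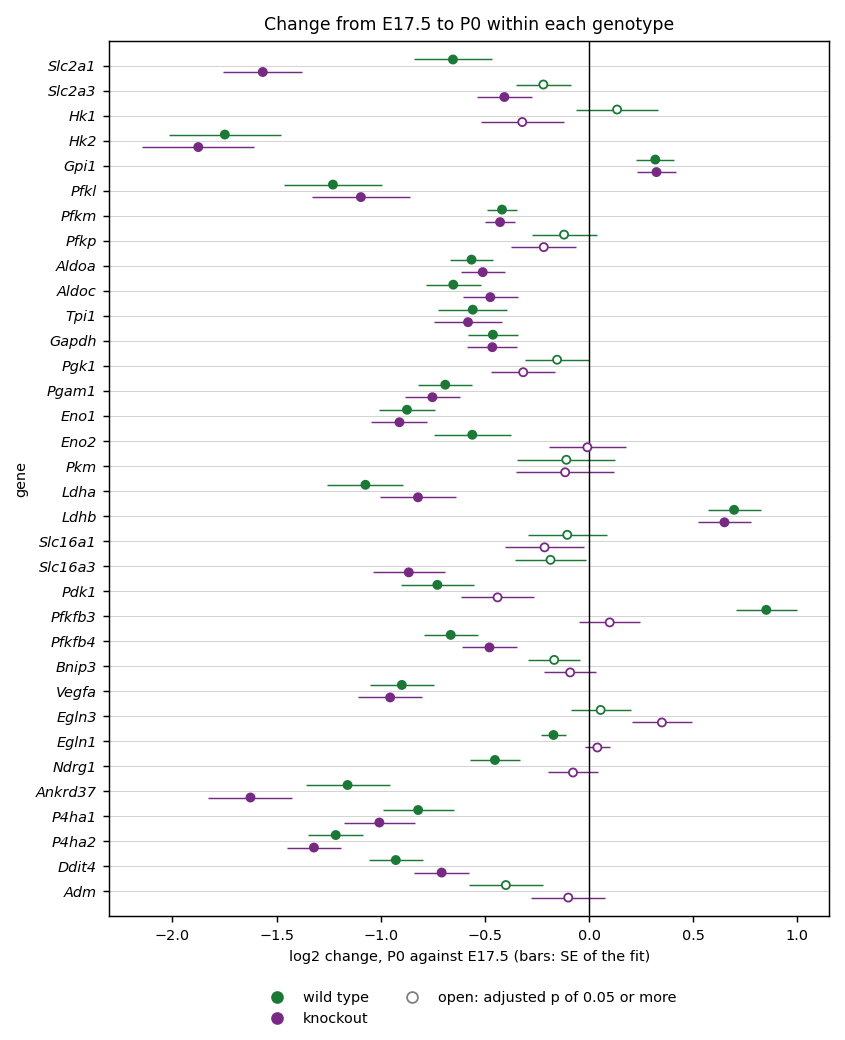
Points give the fitted log2 change from E17.5 to P0 for each member in wild type (green) and knockout (purple), with bars of 1 standard error; filled points passed an adjusted p of 0.05. Most points lie left of 0 in both genotypes, Ldhb and Gpi1 lie right of it in both, and Pfkfb3 rose in wild type alone among filled points.

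Glucose enters cells through transporters, and both measured here had lower values at birth. Slc2a1, which encodes the widespread transporter GLUT1, read 2.57, 2.88 and 2.64 in WT at E17.5 and 2.19, 2.01 and 1.72 at P0. In KO it read 2.89, 3.37 and 3.62 at E17.5 and 1.80, 1.55 and 1.62 at P0. All P0 arrays lay below all E17.5 arrays of their genotype. The change was -0.65 (SE 0.19, limma adjusted p = 0.0142) in WT and -1.57 (SE 0.19, limma adjusted p = 6.76e-05) in KO. The WT call ended without E17.5 WT 2 or P0 WT 3, whereas the KO call held in all alternatives run. Slc2a3, for the high-affinity transporter GLUT3, changed by -0.22 in WT, which did not pass, and fell by 0.41 in KO (limma adjusted p = 0.0285), a call that 10 of 31 alternatives ended, among them leaving out E17.5 WT 3, E17.5 KO 2, E17.5 KO 3, P0 KO 1 or P0 KO 2.

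Of the 15 enzymes from hexokinase to pyruvate kinase, 10 fell, 1 rose and 4 did not pass in WT, and 9 fell, 1 rose and 5 did not pass in KO. That is 73.3% and 66.7% called, against 43.3% and 37.2% of all genes. Hk2, the inducible hexokinase that traps glucose in the cell, changed most. It read 1.34, 2.01 and 1.29 in WT at E17.5 and 0.51, -0.26 and -0.46 at P0, and in KO 1.78, 1.80 and 1.40 at E17.5 and 0.37, -0.23 and -0.41 at P0. The stages did not overlap in either genotype. The fall was 3.36-fold in WT (log2 change -1.75, SE 0.27, limma adjusted p = 0.00029) and 3.67-fold in KO (-1.88, SE 0.27, limma adjusted p = 0.000216). Hk1, the constitutive hexokinase, changed by 0.13 in WT and -0.32 in KO on its brightest probe, neither past the test. Its other probes that passed the filter gave -0.04, -0.17, -0.30 and 0.36 in WT, none past the test. In KO they gave -0.48, -0.44, -0.68 and -0.02, and of these -0.68 passed (limma adjusted p = 0.0124). The reading of Hk1 therefore depends on the probe.

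Phosphofructokinase commits sugar to glycolysis, and its 3 isozyme genes differed. The liver-type Pfkl fell by 1.23 in WT and by 1.10 in KO (limma adjusted p = 0.00125 and 0.00305). The muscle-type Pfkm fell by 0.42 and by 0.43, with WT arrays at 2.67, 2.63 and 2.75 at E17.5 and close together, at 2.22, 2.19 and 2.21, at P0. The platelet-type Pfkp changed by -0.12 in WT and -0.22 in KO and passed in neither, and its other probes gave values of both signs.

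Further down the chain most enzymes fell by similar amounts in both genotypes. Aldoa, the main aldolase, fell by 0.56 in WT and 0.51 in KO. The triosephosphate isomerase gene Tpi1 fell by 0.56 and 0.58, and Gapdh, often used as a reference gene, by 0.46 in both. The phosphoglycerate mutase gene Pgam1 fell by 0.69 and 0.75, and the enolase gene Eno1 by 0.87 and 0.91. All 10 of these changes passed the test. The calls of Aldoa, Pgam1 and Eno1 held under every alternative in both genotypes, while those of Gapdh and Tpi1 did not. Without E17.5 WT 2 the WT values were -0.30 for Gapdh and -0.38 for Tpi1, and neither passed. Tpi1 also lost its WT call without P0 WT 2 and its KO call without E17.5 KO 2, P0 KO 2 or P0 KO 3, and with only the groups compared both genes lost their KO calls. The other probes of Gapdh, Tpi1 and Aldoa also gave negative values in both genotypes.

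Not every enzyme took part. Gpi1, which converts glucose phosphate to fructose phosphate, read 4.86, 5.11 and 5.10 in WT at E17.5 and 5.38, 5.20 and 5.30 at P0, a rise of 0.32 (SE 0.09, limma adjusted p = 0.0143). The KO rise was also 0.32, with overlapping stages, and 4 of 31 alternatives ended the call in each genotype, among them leaving out E17.5 WT 1 or P0 WT 1 in WT and E17.5 KO 2 or P0 KO 3 in KO. With the array median the WT value was 0.16. Pgk1 and Pkm, the enzymes that make ATP directly, gave -0.15 and -0.11 in WT and -0.32 and -0.11 in KO, and none of these passed. Eno2, the enolase typical of neurons, fell in WT by 0.56 (SE 0.19, limma adjusted p = 0.0272), with overlapping stages, and stood at -0.01 in KO. The WT call ended in 5 of 31 alternatives, among them the replicate block (-0.56, limma adjusted p = 0.0502) and leaving out E17.5 WT 2 (-0.38) or P0 WT 2 (-0.35, limma adjusted p = 0.107). Aldoc, the brain-type aldolase, fell by 0.65 in WT and by 0.47 in KO on its brighter probe, but its other probe gave 0.33 in WT and 1.11 in KO. The direction of Aldoc therefore depends on the probe.

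The lactate dehydrogenase subunits went opposite ways. Ldha, whose enzyme favours making lactate, read 5.06, 5.66 and 5.43 in WT at E17.5 and 4.54, 4.07 and 4.2 at P0, and in KO 5.51, 5.65 and 5.75 at E17.5 and 5.04, 4.66 and 4.62 at P0. It fell 2.1-fold in WT (-1.07, SE 0.18, limma adjusted p = 0.000555) and 1.77-fold in KO (-0.82, SE 0.18, limma adjusted p = 0.00367), with no overlap between stages. Its second probe gave -1.05 and -0.78. Ldhb, whose enzyme favours turning lactate into pyruvate, read 6.10, 5.92 and 6.35 in WT at E17.5 and 6.69, 6.82 and 6.83 at P0. In KO it read 6.03, 6.01 and 5.92 at E17.5 and 6.56, 6.52 and 6.71 at P0. Every P0 array was above every E17.5 array of its genotype, and the rise was 0.70 in WT (SE 0.13, limma adjusted p = 0.000883) and 0.65 in KO (SE 0.13, limma adjusted p = 0.00161). All 4 of these calls held under every alternative run.

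Lactate leaves cells through monocarboxylate transporters. Slc16a3 (MCT4), the exporter of strongly glycolytic cells, read 2.57, 3.20 and 3.13 in WT at E17.5 and 3.03, 2.56 and 2.61 at P0, and the stages overlapped (-0.18, limma adjusted p = 0.404). In KO it read 3.04, 2.90 and 3.02 at E17.5 and 2.09, 2.00 and 2.11 at P0. The KO stages stood apart, with a fall of 0.87 (SE 0.17, limma adjusted p = 0.00183). The step differed between genotypes by -0.68, which did not pass (limma adjusted p = 0.0769). Slc16a1 (MCT1), which moves lactate in both directions, changed by -0.10 in WT and -0.21 in KO, without passing.

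The 3 flux regulators all passed in WT, 2 downwards and 1 upwards. Pdk1, the kinase that shuts pyruvate dehydrogenase, fell by 0.73 in WT (limma adjusted p = 0.00526) and stood at -0.44 in KO (limma adjusted p = 0.0669). Its other probe gave 0.32 and 0.41, so its direction depends on the probe. Pfkfb3 and Pfkfb4 encode enzymes that set the level of fructose 2,6-bisphosphate, the main activator of phosphofructokinase. Pfkfb4 fell by 0.66 in WT and by 0.48 in KO. Pfkfb3 read -0.05, 0.53 and 0.34 in WT at E17.5 and 1.12, 1.14 and 1.16 at P0, and in KO 0.42, 0.29 and 0.17 at E17.5 and 0.37, 0.27 and 0.58 at P0. The WT arrays rose clear of the earlier stage and the KO arrays overlapped with it. The change was 0.85 in WT (SE 0.15, limma adjusted p = 0.000597) and 0.10 in KO (limma adjusted p = 0.639).

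Among the 10 other hypoxia targets, 7 fell and none rose in WT, and 5 fell and none rose in KO. That is 70% and 50% called, against 43.3% and 37.2% of all genes. P4ha2, a collagen prolyl hydroxylase subunit, read 0.26, 0.65 and 0.18 in WT at E17.5 and -0.72, -0.86 and -0.71 at P0, and in KO 0.39, 0.52 and 0.19 and then -0.57, -0.96 and -1.07. The stages stood apart in both genotypes. It fell 2.32-fold in WT (-1.22, SE 0.13, limma adjusted p = 2.49e-05) and 2.5-fold in KO (-1.32, SE 0.13, limma adjusted p = 1.97e-05), and its partner P4ha1 fell by 0.82 and 1.01. Ankrd37, a small ankyrin repeat gene and a direct HIF target, fell by 1.16 in WT and by 1.63 in KO. Vegfa, the main growth factor for blood vessels, fell by 0.90 and 0.95, and its 3 other probes also gave negative values in both genotypes. Ddit4 (REDD1), which restrains mTOR under stress, fell by 0.93 and 0.71. These falls passed the test, and all but that of P4ha1 in WT held under every alternative.

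The remaining targets were less uniform. Ndrg1, a stress-responsive gene, fell by 0.45 in WT (limma adjusted p = 0.00975), or by 0.31 and without passing when E17.5 WT 2 was left out, and stood at -0.08 in KO. Egln1 (PHD2), the main prolyl hydroxylase acting on HIF, fell by 0.17 in WT (limma adjusted p = 0.0389), a call that 13 of 31 alternatives ended, the replicate block and leaving out any of 7 single arrays among them (-0.13 without E17.5 WT 2; with the array median -0.33, which passed), and stood at 0.04 in KO. Egln3 (PHD3), a hydroxylase that HIF itself induces, gave 0.06 in WT and 0.35 in KO, and Bnip3, a mitophagy gene, -0.17 and -0.09. Adm, for the vasodilator peptide adrenomedullin, gave -0.40 in WT and -0.10 in KO. None of these last 6 values passed.

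Over the earlier step, from E15.5 to E17.5, few of these genes were called. In WT 4 rose, 1 fell and 29 did not pass, or 14.7% against 26.4% of all genes (15.3% higher, 11.1% lower). In KO 3 rose, none fell and 31 did not pass, or 8.82% against 21.8% (11.8% higher, 9.99% lower). The arrays of the 2 stages stood apart for 15 members in WT and 9 in KO, against 49.3% and 36.4% of all genes. Those array values are not adjusted for run, whereas the fitted changes are. Cell markers moved over this step as well. In WT the red cell sum was 7.81 or more on each E15.5 array and 7.08 to 7.68 at E17.5 (3 of 9 lower). The granulosa sum went from 6.34 to 6.47 down to 6.08 to 6.19 (2 of 10 higher, 3 lower). The endothelial sum went from 3.67 to 3.72 down to 3.53 to 3.60 (no gene of the 8 called). The surface epithelium sum went from 5.37 to 5.53 down to 5.25 to 5.35 (1 of 6 higher, 1 lower). The stroma sum went from 7.66 to 7.82 up to 7.90 to 7.96 (1 of 8 lower). Of 9 germ cell genes in WT 5 were higher and 1 lower, and the sums overlapped, at 6.83 to 6.86 and 6.70 to 6.91. The macrophage sum went from 1.40 to 1.62 up to 1.73 to 1.81 in WT (2 of 8 higher) and from 1.35 to 1.73 up to 1.87 to 2.24 in KO (5 of 8 higher). In KO 4 of 9 germ cell genes were higher and 3 lower, and the germ cell sum went from 7.06 to 7.23 down to 6.45 to 6.87. Of 9 red cell genes 2 were lower in KO. The part of these markers in the members' values was not tested. Egln1 read -0.47, -0.38 and -0.34 in WT at E15.5 and 0.27, 0.39 and 0.32 at E17.5. In KO it read -0.49, -0.52 and -0.59 at E15.5 and 0.01, 0.01 and -0.00 at E17.5. The stages were far apart in both genotypes relative to the spread within each. The rise was 0.71 in WT (SE 0.07, limma adjusted p = 3.15e-05) and 0.53 in KO (SE 0.07, limma adjusted p = 0.000215). The second Egln1 probe gave 0.52 and 0.31, and the WT call held under all 30 alternatives.

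Eno2 rose by 0.93 in WT (SE 0.21, limma adjusted p = 0.00794) and by 0.67 in KO (limma adjusted p = 0.0418), and 20 of 30 alternatives ended the KO call. Pfkfb3 rose by 0.57 in WT and by 0.61 in KO (limma adjusted p = 0.0267 and 0.0225), and 7 alternatives ended each call. Bnip3 rose in WT by 0.78 (limma adjusted p = 0.00225) and stood at 0.31 in KO. Adm read -0.62, -1.18 and -1.04 in WT at E15.5 and -1.71, -1.53 and -1.90 at E17.5, a fall of 0.78 (SE 0.21, limma adjusted p = 0.0159), and the KO value was -0.36. Without E17.5 WT 3 the Adm change was -0.42 (limma adjusted p = 0.412), and with the replicate block it was -0.74 and narrowly missed the threshold (limma adjusted p = 0.0534). The Bnip3 call and the WT calls of Eno2 and Pfkfb3 also ended without E17.5 WT 3, with Pfkfb3 at 0.38 there. With the replicate number as a block, 3 members were called in WT and 1 in KO. In WT 1 member was called without E17.5 WT 3, the only E17.5 WT array of run A. In KO 1 was called without E15.5 KO 1, E17.5 KO 3 or E17.5 WT 3, and 5 without E17.5 WT 2.

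Before birth few members were called between genotypes, and the same held for all genes. At E15.5 no member passed the test in limma, against 1.62% of all genes (0.969% higher, 0.648% lower), and 3 had an unadjusted p under 0.05. No member was called at this stage under any alternative run. The transporters gave the largest values, Slc2a1 0.47 (SE 0.18, limma adjusted p = 0.229) and Slc2a3 0.34 (SE 0.12, limma adjusted p = 0.211). Slc2a1 read 2.82, 2.65 and 2.59 in WT and 3.39, 2.90 and 3.20 in KO, without overlap, and the highest KO value was on E15.5 KO 1, 1 of the 2 arrays high in red cell signal. The germ cell sum was 6.83 to 6.86 in WT and 7.06 to 7.23 in KO at this stage, with no gene of the 9 called. The endothelial sum was 3.67 to 3.72 in WT and 3.51 to 3.63 in KO, with 1 of 8 lower. The part of both was not tested.

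At E17.5, 1 of 34 members passed, or 2.94% against 4.19% of all genes (1.33% higher, 2.86% lower), and 4 had an unadjusted p under 0.05. Egln1 fell in KO by 0.32 (SE 0.06, limma adjusted p = 0.0129), and the values above put the WT arrays between 0.27 and 0.39 and the KO arrays between -0.00 and 0.01. The difference was -0.32 within each of the 2 runs, and the second probe gave -0.31. With the replicate number as a block the change was also -0.32 but did not pass (limma adjusted p = 0.0816). The call also ended without E17.5 WT 2, WT 3, KO 2 or KO 3, with limma adjusted p between 0.0506 and 0.0665, and without slide 3 (0.0645).

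Slc2a1 was higher in each E17.5 KO array than in any WT array, with a change of 0.60 (SE 0.18) that did not pass (limma adjusted p = 0.0788). The difference was 0.99 on the run A arrays and 0.40 on those of run B. The KO value of run A is that of E17.5 KO 3, the array with the highest red cell signal of all, where Hk1 was also the highest of the 18 arrays at 3.42. Over the members, KO against WT had a median of 0.18 in run A, from 1 array of each genotype, and 0.02 in run B. At this stage the granulosa sum was 6.26 to 6.43 in KO against 6.08 to 6.19 in WT, with no gene of the 10 called. The macrophage sum was 1.87 to 2.24 against 1.73 to 1.81, with 1 of 8 higher. The surface epithelium sum was 5.43 to 5.52 against 5.25 to 5.35, with no gene of the 6 called. Of 8 endothelial genes 2 were higher, and of 8 stroma genes 1 was. Of 9 germ cell genes 1 was higher and 1 lower. The part of these markers was not tested.

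**Figure D3:**
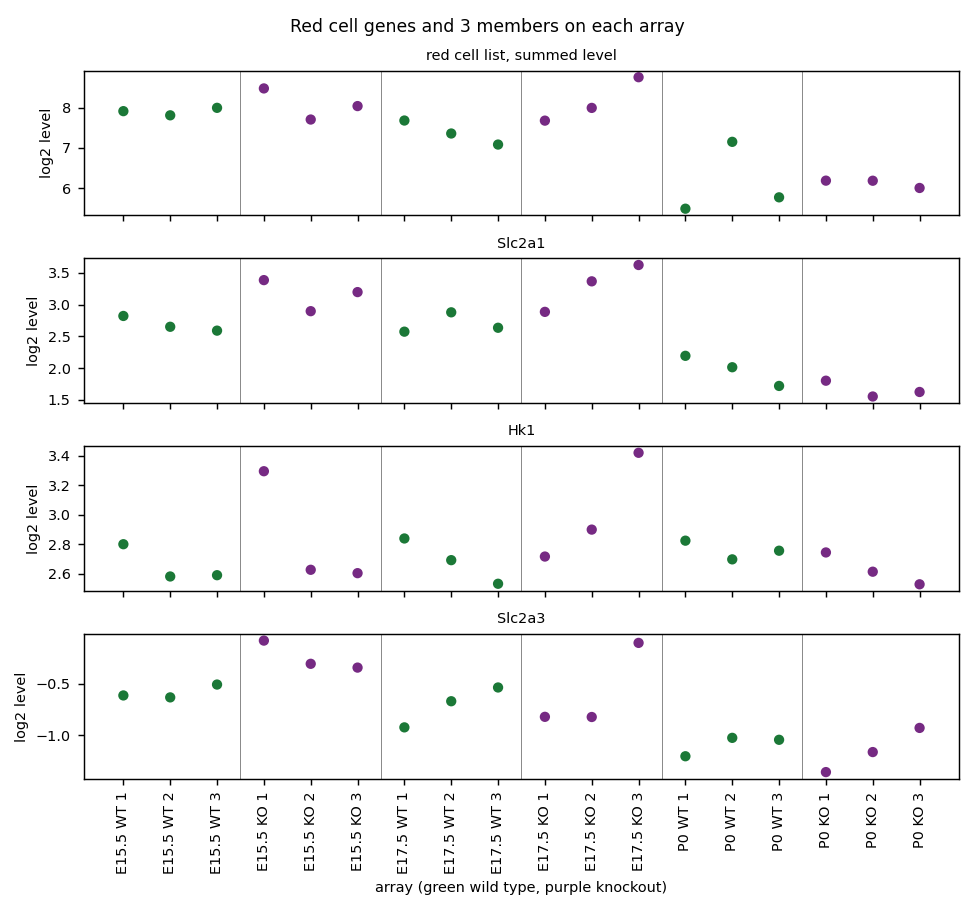
The top panel gives the log2 of the summed signal of 9 red cell genes on each array, and the panels under it the log2 signal of Slc2a1, Hk1 and Slc2a3; green points are wild type and purple points knockout. E15.5 KO 1 and E17.5 KO 3 are the highest arrays for the red cell sum, and for Hk1 and Slc2a3 as well.

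At P0, 7 of 34 members passed between genotypes, 5 higher and 2 lower in KO. That is 20.6%, against 34.4% of all genes tested (18.3% higher, 16.1% lower). The median was 0.09 over the members and -0.00 over all genes. The groups did not overlap for 11 members, against 48.3% of all genes. Members that changed came from every role except the transporters: 1 of 15 enzymes rose, 1 of 4 lactate genes rose and 1 fell, 1 of 3 regulators fell, and 3 of 10 other hypoxia targets rose. The 2 falls held under all 31 alternatives, and each of the 5 rises was lost in some of them.

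**Figure D4:**
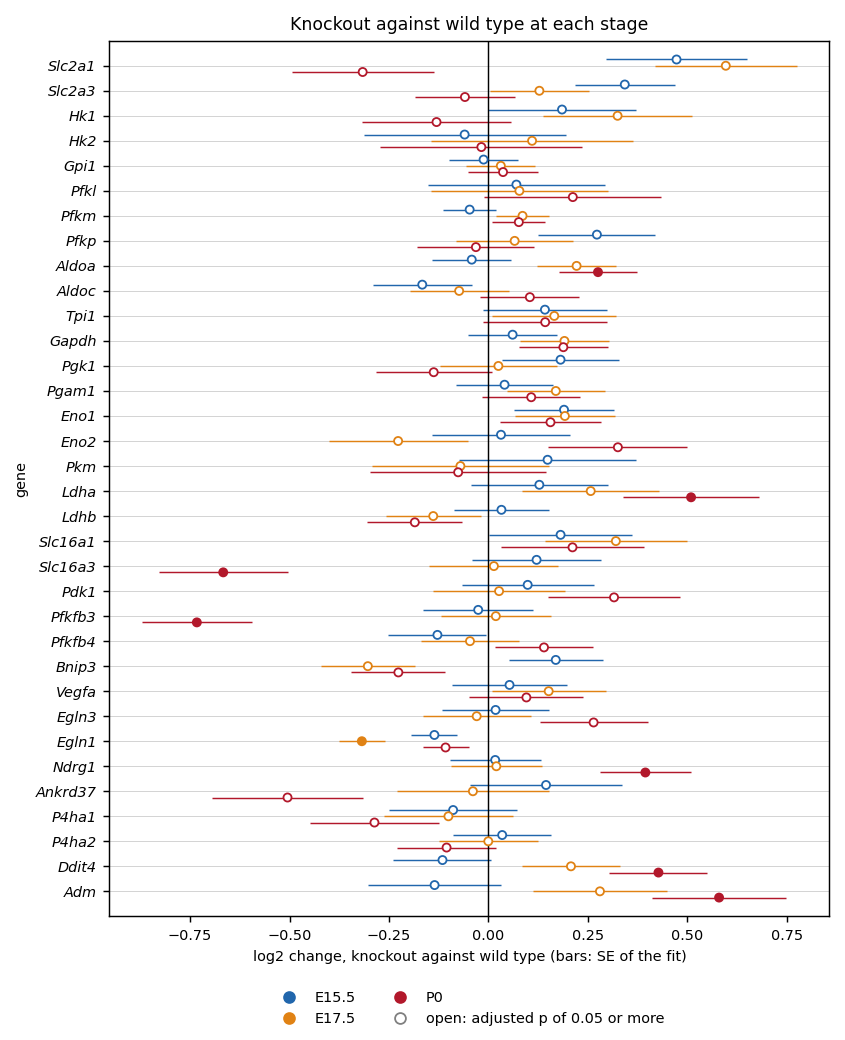
Points give the fitted log2 change of knockout against wild type for each member at E15.5 (blue), E17.5 (orange) and P0 (red), with bars of 1 standard error; filled points passed an adjusted p of 0.05. Slc16a3 and Pfkfb3 have the lowest P0 values, and Adm and Ldha the highest.

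Pfkfb3 was the member with the smallest adjusted p at P0. The 3 WT arrays read 1.12, 1.14 and 1.16 and the KO arrays 0.37, 0.27 and 0.58, a gap of more than the spread in either group. The fall was 1.66-fold (-0.73, SE 0.14, limma adjusted p = 0.00153). At E17.5 the change was 0.02, and the genotype change differed between the stages by -0.75 (SE 0.19, limma adjusted p = 0.0289). Of the alternatives, 10 ended that call, including the replicate block (-0.75, limma adjusted p = 0.0851). Slc16a3, the lactate exporter, read 3.03, 2.56 and 2.61 in WT and 2.09, 2.00 and 2.11 in KO, so the lowest WT array stood above the highest KO array. It fell 1.59-fold (-0.67, SE 0.16, limma adjusted p = 0.00735).

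The rises at P0 were smaller relative to their spread. Ldha read 4.54, 4.07 and 4.2 in WT and 5.04, 4.66 and 4.62 in KO, so the groups were narrowly apart, with a change of 0.51 (SE 0.17, limma adjusted p = 0.0359). Its second probe gave 0.27, and with the mean of both probes the change was 0.39 (limma adjusted p = 0.117). Aldoa read 6.20, 5.92 and 6.10 in WT and 6.42, 6.25 and 6.38 in KO, a change of 0.28 (SE 0.10, limma adjusted p = 0.0468). Its second probe gave 0.31. Under quantile normalisation the Aldoa value was 0.10 and that of Ldha 0.40, and neither passed (limma adjusted p = 0.453 and 0.0919). When slide was a random block, both missed the threshold narrowly (limma adjusted p = 0.0702 for Aldoa and 0.0591 for Ldha). With background correction and quantile normalisation the values were 0.14 for Aldoa and 0.32 for Ldha. In all, 16 of 31 alternatives ended the Aldoa call and 9 the Ldha call. Both ended without P0 WT 2 (0.20 for Aldoa and 0.41 for Ldha), P0 WT 3 or P0 KO 1, and that of Aldoa also without P0 KO 3 or any of 6 arrays of the other stages.

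Adm read -1.91, -2.27 and -2.15 in WT and -1.37, -1.56 and -1.66 in KO, a rise of 0.58 (SE 0.17, limma adjusted p = 0.018). Ddit4 read 4.63, 4.11 and 4.54 in WT and 4.77, 4.72 and 5.08 in KO, a rise of 0.43 (SE 0.12, limma adjusted p = 0.0176). Ndrg1 read 1.84, 1.52 and 1.42 in WT and 2.08, 1.84 and 2.04 in KO, a rise of 0.39 (SE 0.11, limma adjusted p = 0.0184). For these 3 the groups did not overlap, though the highest WT and the lowest KO array of Ndrg1 nearly met. The Adm call ended without P0 WT 2 or P0 KO 1, with limma adjusted p of 0.072 and 0.0655. The Ddit4 change was 0.27 without P0 WT 2 and 0.32 without P0 KO 3, and neither passed (limma adjusted p = 0.0696 and 0.0735), and that of Ndrg1 without P0 WT 2, WT 3, KO 1 or KO 3 (0.054 to 0.0695). Without P0 WT 2 all 5 rises lost their call, which left 0 members higher and 3 lower. That array had the highest red cell sum of the P0 arrays, 7.15 against 5.49 and 5.77 on the other WT arrays, and the part of this in the rises was not tested. Without P0 KO 1, 1 member was higher and 2 lower, and without P0 WT 3, 2 were higher and 2 lower. With only the P0 arrays in the fit 3 were called.

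**Figure D5:**
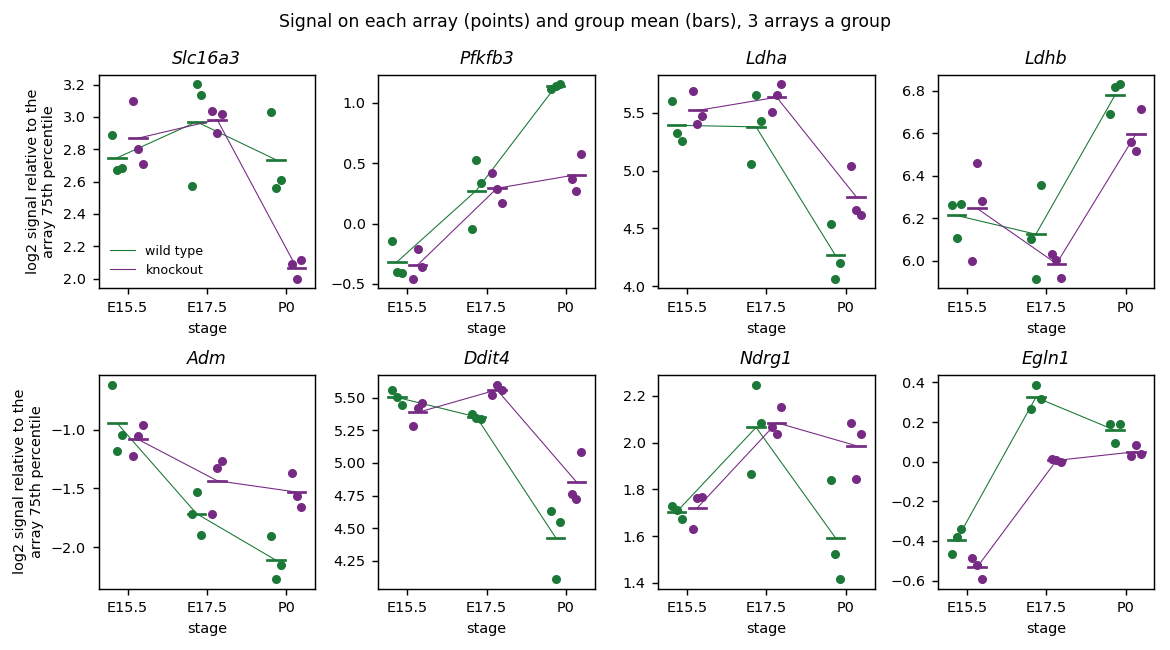
Points give the log2 signal of 8 members on each array by stage, green for wild type and purple for knockout, with a bar at each group mean and thin lines joining the means. At P0 the knockout points lie below the wild type points for Slc16a3 and Pfkfb3 and above them for Ldha, Adm, Ddit4 and Ndrg1, and at E17.5 they lie below for Egln1.

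Several members came near the threshold or stood out without passing at P0. Ankrd37 read -0.08, -0.81 and -0.70 in WT and -1.03, -1.24 and -0.84 in KO, a change of -0.51 (SE 0.19, limma adjusted p = 0.0557). The other hypoxia targets had values of both signs: Egln3 gave 0.26 and Vegfa 0.10, and P4ha1 gave -0.29 and Bnip3 -0.23, none past the test. Slc2a1 gave -0.32 (limma adjusted p = 0.184), against 0.60 at E17.5, and the change between the stages, -0.91 (SE 0.25, limma adjusted p = 0.0378), passed the test. That call ended in 18 of 31 alternatives and held with the replicate block. It was -0.72 without slide 3 (limma adjusted p = 0.12). In all, 2 of 34 members passed for this difference, or 5.88% against 10.4% of all genes (4.28% higher, 6.12% lower). A dimmer Gpi1 probe was well above background on all 3 WT arrays at P0 and on none of the KO arrays, while the brighter probe gave 0.04.

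Marker levels also differed between genotypes at P0. The endothelial sum was 3.16 to 3.39 in WT and 3.57 to 3.80 in KO, with 6 of 8 genes higher. The surface epithelium sum was 5.15 to 5.36 in WT and 5.66 to 5.71 in KO, with 5 of 6 higher, and the granulosa sum was 5.74 to 5.95 in WT and 6.05 to 6.27 in KO, with 4 of 10 higher and 1 lower. The macrophage sum was 1.39 to 1.54 in WT and 1.58 to 1.68 in KO, with 2 of 8 higher. Of 9 germ cell genes 2 were higher and 1 lower, and the germ cell sums overlapped. Red cell genes were called in neither direction, and their sum, 5.49 to 7.15 in WT and at most 6.19 in KO, overlapped. The part of these differences in the members' values was not tested.

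Related lists were read beside the members at P0, KO against WT. Of 18 other glycolytic enzymes and isozymes tested, 2 were higher, 6 were lower and 10 did not pass (median -0.53). Bpgm, which makes 2,3-bisphosphoglycerate, read 2.79, 3.20 and 2.74 in WT and 1.74, 1.57 and 1.97 in KO (-1.15, SE 0.15). Pfkfb2, a relative of Pfkfb3, went the other way from it, with -0.84, -0.89 and -0.83 in WT and -0.08, -0.14 and -0.29 in KO (0.69, SE 0.10). The Bpgm and Pfkfb2 groups were widely separated, and both passed the test. Of 34 further hypoxia targets, 9 were higher, 1 was lower and 24 did not pass (median 0.14). The histone demethylase gene Kdm3a rose by 0.56 and the MYC antagonist gene Mxi1 by 0.47.

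Of 13 regulators of the HIF pathway itself, 2 were higher, 1 was lower and 10 did not pass (median 0.03). The ubiquitin ligase gene Siah1a, whose product targets prolyl hydroxylases, rose by 0.51, its relative Siah2 fell by 0.32, and Hif3a, which can restrain the other HIF subunits, rose by 1.08 (SE 0.34). Hif3a read -2.90, -3.00 and -2.62 in WT and -0.94, -2.35 and -2.00 in KO, so P0 KO 1 stood far above the other KO arrays. At E15.5 and E17.5 none of the 13 passed. Downstream of pyruvate, 4 of 12 genes for pyruvate entry into mitochondria were higher and 1 was lower (median 0.12). They included both the pyruvate dehydrogenase phosphatase gene Pdp1, which read -0.18, -0.31 and -0.14 in WT and 0.77, 0.47 and 0.73 in KO, and the opposing kinase gene Pdk4, at -0.97, -1.12 and -0.62 in WT and -0.26, -0.13 and 0.03 in KO. Pdp1 rose by 0.87 and Pdk4 by 0.78. Of 18 genes of the citric acid cycle, 4 were higher and 1 was lower (median 0.13), with Mdh2 at 0.59 and Ogdh at -0.55. Of 9 pentose phosphate genes, 2 were higher and 3 lower (median -0.08), and of 10 genes of gluconeogenesis and glycogen, 2 were higher and 3 lower (median -0.13). These shares are to be read against the 34.4% of all genes called.

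Scaling touched the balance of these results. With arrays scaled to their median instead of the 75th percentile, the median of all genes moved by more than 0.1, from -0.00 to 0.14 at P0 between genotypes and from 0.01 to -0.15 for the WT step to birth. The share of higher calls among all genes then went from 53.1% to 73.4% at P0 and from 51.1% to 31.4% for that step. The members' counts were 5 higher and 2 lower at P0 and 2 higher and 22 lower for the step, close to those given above. Under quantile normalisation 2 were higher and 3 lower at P0, and under background correction with quantile normalisation 3 were higher and 4 lower. The uncalled P0 values of Hk1, Hk2, Pfkp, Pgk1, Pkm, Slc2a3 and Gpi1 changed sign under some scaling and carry no direction.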

How the data were processed

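Whole ovaries in 6 groups of 3 samples, by stage and genotype, were each read on a 1-colour Agilent 4x44K mouse array. The deposited scanner files hold, for every spot, the intensity after background subtraction, which the authors obtained from Agilent Feature Extraction (version 10.7.3.1 per the file headers but 9.5 per the submitters' processing notes, and no source used says which one made the values). The authors' deposited value table gives log2 values equal to the log2 intensity plus 1 constant per array, and it was used as an alternative. Per the labels' protocols, Cy3 cRNA was made by linear amplification of total RNA.

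Control spots were dropped, as were the 51 to 109 spots of each array that carried an outlier flag, the log2 intensity was taken and the array's 75th percentile subtracted. Probes had to exceed background clearly on each of the 3 arrays of some group (29201 probes), and the brightest stood for its gene (19298 genes). Spots of a probe were averaged. Probe accessions were matched to RefSeq for names (28223 probes). With 3 arrays per group, the number of arrays limits the precision.

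limma 3.58.1 in R 4.3.3 (lmFit, eBayes) was fitted to all 18 arrays with group and run as terms (11 residual degrees of freedom), with Benjamini-Hochberg adjustment over all genes and a threshold of 0.05. Run was read from the form of the file names. The fit was also run on simulated data with 200 of 19298 genes changed, independent noise and no run or slide effect. At E15.5 and E17.5, 1.5-fold changes were recovered there in 43.3% and 37.3% of cases, so changes of that size can go uncalled. At P0, 1.5-fold changes were recovered in 38.8% of cases and 2-fold changes in 66.7%, and 9.3% of calls were false. In the real data 34.4% of genes were called at P0, so the P0 shares do not carry over to them. How same-numbered arrays deviated from their groups' means correlated at 0.12, 0.40 and 0.45 at E17.5, at 0.18, 0.20 and -0.12 at E15.5 and at 0.15, 0.10 and 0.08 at P0. Run was left in these deviations. At E17.5 replicate 3 of both genotypes was in run A and the others in run B, so the values there cannot tell pairing from run. Whether the numbers mark pairs at any stage is not known. The alternatives were other normalizations and scalings, other filters, no run term, the mean of probes, a slide or replicate block, only the groups compared, no slide 3, and each array left out.

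Every member may be named, and of the other lists at most 4 genes per genotype comparison with the smallest adjusted p. The members were chosen by name, as given above, and the other lists were chosen with earlier results of these data known. Plots were made in Python 3.11.15 with matplotlib 3.10.9.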

Additional observations from a re-analysis of the deposited data

Results flagged for a closer look

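The genotype change of 2 of 34 members differed between E17.5 and P0 by the interaction term of the limma fit. That is 5.88%, against 10.4% of all genes. For Slc2a1 the difference was -0.91 (SE 0.25, limma adjusted p = 0.0378), from 0.60 at E17.5 to -0.32 at P0. For Pfkfb3 it was -0.75 (SE 0.19, limma adjusted p = 0.0289), from 0.02 to -0.73. The Slc2a1 call ended in 18 of 31 alternatives and the Pfkfb3 call in 10 of 31. The Slc2a1 value at E17.5 was 0.99 on the run A arrays and 0.40 on those of run B, and that of Pfkfb3 was -0.17 and 0.11. The P0 arrays were all of run B. Slc2a1 was highest on the E17.5 KO 3 array, which also had the highest red cell signal, and whether that signal bears on it was not tested.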

How the results depend on the processing

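Of 1945 values of called members under the alternatives, 1775 kept their direction and call, 169 kept the direction and lost the call, and 1 reversed: Aldoc from E17.5 to P0 in KO, at 0.32 with the mean of its probes. The counts of members called for the genotype difference at E17.5 (1), for its difference between stages (2) and for the KO step from E15.5 to E17.5 (3) were the least stable. The array median gave 0, 0 and 0, and so did only the groups compared, which also gave 3 for the genotypes at P0 (7) and 13 for the KO step to birth (21). The replicate block gave 0, 1 and 1, and 3 for the WT step from E15.5 (5). Leaving out both arrays high in red cell RNA, chosen after seeing the data, also gave 0, 1 and 1. Leaving out slide 3 gave 0 at E17.5 and 1 for the difference between stages, and could not be fitted for the steps from E15.5, since run and stage cannot be told apart there. For that difference, no filter and no run term gave 1 and slide as a random block 0. Without single arrays the counts were 0 to 0 at E15.5, 0 to 2 at E17.5, 3 to 8 at P0 and 0 to 3 for the difference between stages. They were 1 to 7 for WT and 1 to 5 for KO from E15.5 to E17.5, and 18 to 25 for WT and 17 to 22 for KO from E17.5 to P0. At E17.5 the count was 0 without WT 2, WT 3, KO 2 or KO 3 and 2 without KO 1. The difference between stages gave 0 without E17.5 KO 2, P0 KO 2, P0 WT 1 or P0 WT 2. The cause of these shifts was not tested.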
